A study of Homo sapiens with 8 samples.

Results

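The difference between the response of detached cells and the response of attached cells to a knockdown of SPIB was measured gene by gene in H1703, a human cell line derived from a squamous cell carcinoma of the lung. RNA sequencing values were available for detached cells with the SPIB knockdown, detached control cells, attached cells with the SPIB knockdown and attached control cells, with 2 libraries in each of the 4 groups. The control cells carried a knockdown of luciferase, so all 8 libraries come from cells with a knockdown reagent, and "detached" stands for the label's word floating. Every library, attached ones included, carries the same label note of 12 hours in floating culture, so the length of detachment cannot be told from it for each group. For each gene the difference of effects was taken on log2(FPKM + 1), as the knockdown effect in detached cells minus the knockdown effect in attached cells, where FPKM is fragments per kilobase of transcript, scaled to the mapped fragments of the library. Of 27204 genes and loci, the 13438 with at least 1 FPKM in at least 2 libraries were tested.

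SPIB is a transcription factor of the ETS family, close to SPI1, and is best known from B lymphocytes and plasmacytoid dendritic cells. Cells that lose contact with the extracellular matrix lose signals from integrins, which in attached cells feed into focal adhesion kinases, the RAS and ERK cascade and the coactivator YAP. Many epithelial cells then die by anoikis, and carcinoma cells that resist it can lean on autophagy, in which autophagosomes fuse with lysosomes. A gene whose response to a knockdown depends on attachment shows up in a factorial design of this kind as an interaction.

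The knockdown itself could not be checked, because SPIB is listed only in a locus that merges it with POLD1 and CTD-2545M3.6. That locus had 41.8 and 44.3 FPKM in detached knockdown libraries, 44.9 and 49.8 in detached control libraries, 47.5 and 52.5 in attached knockdown libraries and 55.9 and 51.2 in attached control libraries, and its difference of effects was −0.04 ± 0.11 (SE). FPKM summed to between 707883 and 786285 per library, read totals are not part of these values, and between 12649 and 12894 genes reached 1 FPKM. A mitochondrial locus is listed at 0 in 4 libraries, 1 in each group, and no group is set apart by it. KRT18 lay between 46.2 and 90.0 FPKM and KRT8 between 11.5 and 20.0. TP63, EPCAM and CDH1 stayed under 1 FPKM in every library. Markers of squamous and epithelial identity were thus low or absent apart from KRT18 and KRT8. Of the mesenchymal markers, VIM lay between 2060 and 2550, but COL1A1 and FN1 reached at most 3.9 and 4.42. COL3A1, PDGFRB, DCN and LUM stayed under 1 FPKM in every library. KRT5, KRT6A and KRT14 lie in merged loci. The 4 B cell markers were all under 1 FPKM, and the 4 immune markers summed to at most 2.65 FPKM.

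No gene passed the test of the difference of effects. Of the 13438 genes, 0 (0%) had a Benjamini-Hochberg adjusted p under 0.05 in limma, and the smallest adjusted p was 0.214, that of ANGPTL4. At an unadjusted p under 0.05 there were 898 genes (6.68%), of which 371 (2.76%) had a positive and 527 (3.92%) a negative difference, that is, a knockdown effect further up or further down in detached cells than in attached cells. Of these 898 genes, 671 had effects of opposite sign in the 2 states, 170 had the same sign and a larger effect in attached cells, and 57 had the same sign and a larger effect in detached cells. A choice by the size of the difference favours opposite signs, so this split is a description. Among all tested genes 8335 (62%) had the same sign in both states. The values limit how large a difference could have stayed unseen. The median SE of the difference was 0.157 log2, and its 95% interval reached a median of 0.367 to either side. The interval excluded a difference of 1 log2 or more in either direction for 11488 genes (85.5%). Differences of at least 1 log2 were estimated for 179 genes, and 127 of these lay under 5 FPKM in every group mean.

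Within a state, the test found more genes in attached cells. In detached cells 99 genes (0.737%) passed, 10 higher (0.0744%) and 89 lower (0.662%), against 248 genes (1.85%), 86 higher (0.64%) and 162 lower (1.21%), in attached cells. At an unadjusted p under 0.05 the counts were 1596 (11.9%) in detached and 2295 (17.1%) in attached cells. Of the called genes, 69 passed in both states, 30 (0.223%) only in detached cells and 179 (1.33%) only in attached cells. Passing in a single state does not show that the effects differ, and the test of that difference is the one that found no gene. The 2 knockdown effects use different libraries, and over all tested genes they had the same sign for 8335 genes (62%), with a Pearson correlation of 0.227 and a Spearman correlation of 0.31 across genes, which are not independent replicates.

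**Figure D1:**
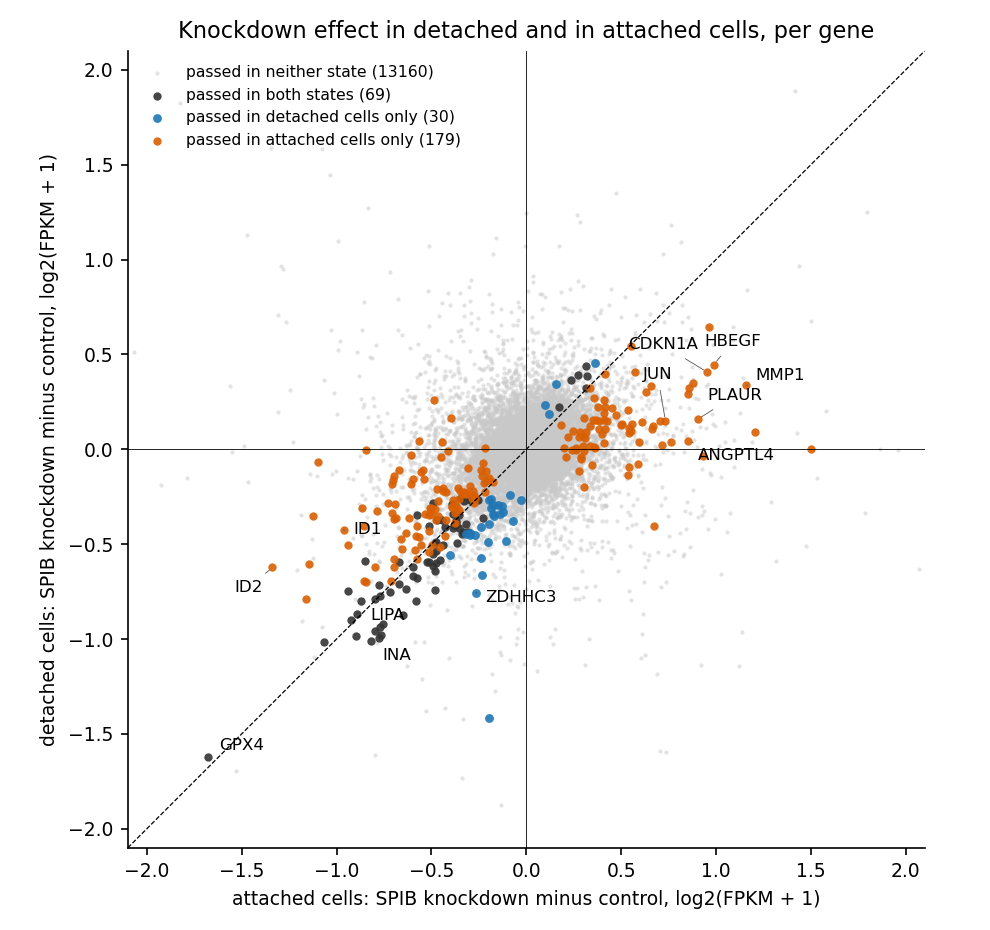
Each point is a gene, placed by its knockdown effect in attached cells (x axis) and in detached cells (y axis), both as SPIB knockdown minus control on log2(FPKM + 1), with the dashed line where both are equal; 20 genes lie outside the axes. Genes that passed in both states (69, black) follow the dashed line. Those that passed only in detached cells (30, blue) lie on the same side of 0 in attached cells. All 80 genes raised only in attached cells (orange, right) lie below the line, with a median of 0.11 in detached cells. The classes were set by calls on these same effects, so their places against the line are partly fixed by the choice.

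The 179 genes that passed in attached cells only were of 2 kinds. The 80 that rose in attached cells had a median effect of 0.11 in detached cells and 0.42 in attached cells, and 16 of them had the opposite sign in detached cells. The 99 that fell in attached cells had a median of −0.29 in detached cells and −0.50 in attached cells, and only 5 had the opposite sign. Of the 80 raised genes, 12 had a detached effect at least 50% as large with the same sign, against 66 of the 99 lowered genes. At an unadjusted p under 0.05 the difference of effects held for 66 of the 80 and 33 of the 99, against 6.68% of all genes, and for 8 of the 69 genes called in both states. Since the attached effect both chose these genes and enters the difference, these shares are a description. The detached values also had a part in the choice, because genes that passed in detached cells were left out. With those kept in, the 86 genes that rose in attached cells had a detached median of 0.12. The 162 that fell had −0.37.

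ANGPTL4, a secreted inhibitor of lipoprotein lipase, had the smallest p of all genes (XLOC_024572, chromosome 19, 8427750 to 8439257, hg19). It had 107 and 97.4 FPKM in detached knockdown libraries, 102 and 96.1 in detached control libraries, 154 and 161 in attached knockdown libraries, and 87.4 and 85.9 in attached control libraries. Both attached knockdown libraries stood above the other 6, and the detached groups overlapped. Its effect was 0.04 ± 0.06 in detached cells (adjusted p = 0.826) and 0.85 ± 0.06 in attached cells (adjusted p = 0.00213), a difference of −0.81 ± 0.08 with a 95% interval of −1.0 to −0.62.

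TFPI2, a secreted Kunitz-type inhibitor of serine proteases (chromosome 7, 93514493 to 93520554), had 43.9 and 42.7 FPKM in detached knockdown libraries against 46.3 and 45.1 in detached control libraries, and 85.9 and 86.4 in attached knockdown libraries against 60.1 and 53.9 in attached control libraries. It was lowest in the detached knockdown libraries and highest in the attached knockdown libraries, and its difference of effects was −0.67 ± 0.09 (adjusted p = 0.375). ITGA6, the integrin alpha 6 subunit of laminin receptors (chromosome 2, 173291593 to 173371216), had 103 and 101 FPKM in detached knockdown libraries against 97.4 and 93.1 in detached control libraries, and 162 and 169 in attached knockdown libraries against 111 and 115 in attached control libraries. It rose by 0.55 ± 0.05 in attached cells (adjusted p = 0.0035), and its detached effect was 0.10 ± 0.05 (adjusted p = 0.477), a difference of −0.46 ± 0.06. Both attached knockdown libraries again stood above all others.

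JUN, a subunit of the transcription factor AP-1 (chromosome 1, 59246399 to 59250504), had 31.1 and 31.3 FPKM in detached knockdown libraries against 27.6 and 28.5 in detached control libraries, and 48.3 and 50.6 in attached knockdown libraries against 29.3 and 29.4 in attached control libraries. It rose by 0.73 ± 0.05 in attached cells (adjusted p = 0.00309), and in detached cells the value was 0.15 ± 0.05 (adjusted p = 0.333). The detached libraries of the 2 kinds did not overlap either, at a smaller distance. ELK3, an ETS factor of the ternary complex type that acts with serum response factor, had a detached effect of 0.10 ± 0.06 and rose by 0.66 ± 0.06 in attached cells, with a difference of −0.56 ± 0.09. Further genes of this kind with a symbol of their own were NOL11, a nucleolar protein of ribosomal RNA synthesis (difference −0.50 ± 0.08), DCBLD2, a neuropilin-like membrane protein (−0.43 ± 0.08), NUP50, a nuclear pore protein (−0.39 ± 0.07), and TM4SF1, a tetraspanin-like membrane protein (−0.25 ± 0.04). In detached cells NOL11, NUP50 and DCBLD2 had the opposite sign to attached cells, at −0.20 ± 0.05, −0.12 ± 0.05 and −0.08 ± 0.05. TM4SF1 had 0.01 ± 0.03 there. The locus that merges ZNF655 with GS1-259H13.10 had a difference of −0.43 ± 0.07, and its genes cannot be told apart. Of the 12 genes and loci with the smallest p for the difference among those called in attached cells only, 5 kept their attached call without any 1 of the 8 libraries, namely ANGPTL4, TFPI2, JUN, ITGA6 and ELK3.

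**Figure D2:**
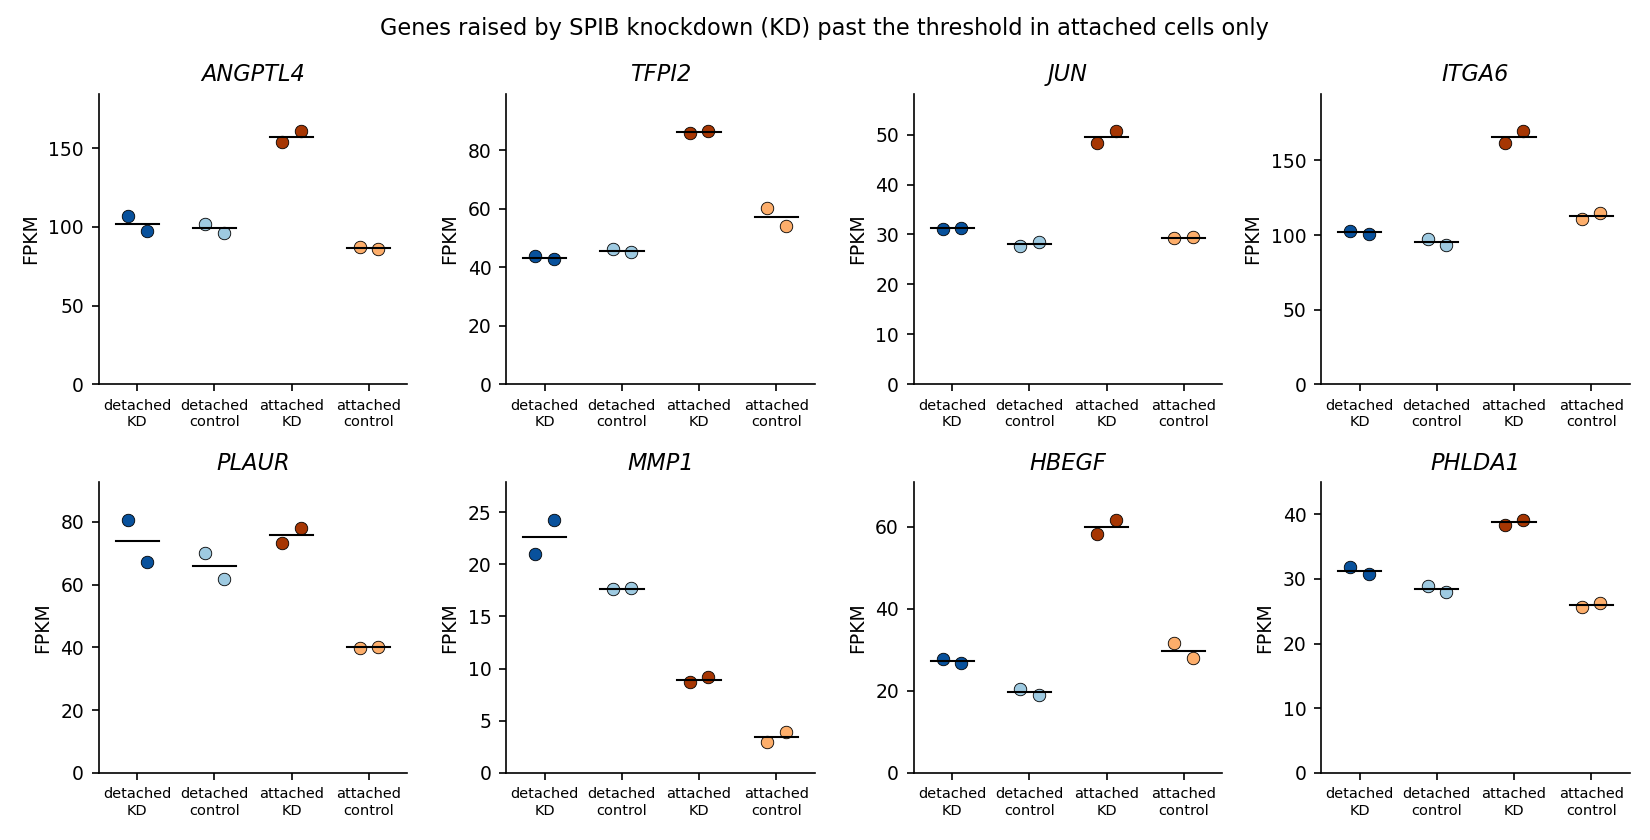
FPKM of 8 genes that rose with the SPIB knockdown past the threshold in attached cells only, with a point for each of the 2 libraries and a bar at their mean in detached knockdown (KD), detached control, attached KD and attached control cells. In each panel the 2 attached KD points lie above both attached control points. For ANGPTL4, PLAUR, MMP1 and PHLDA1 the detached control points also lie above the attached control points.

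Feedback genes of the ERK cascade, which ERK induces and which mostly damp it, had the most negative median difference of 39 lists. The lists were chosen with earlier results of these data known. Counts for this list and the others are therefore a description. Of 15 tested members, 5 rose in attached cells, where 0.64% of all genes did. In detached cells 0 passed in either direction, against 0.737% of all genes. Their median effect was 0.11 in detached cells and 0.38 in attached cells, and the median difference was −0.42, against −0.01 over all 13438 genes. Without 1 library the median difference of the list was −0.41 to −0.31. The difference was negative for 13 of 15 members under the values as deposited and under each of the other scalings. Over all 13438 genes it was negative for 6953 as deposited. At an unadjusted p under 0.05 it was negative for 8 members, against 3.92% of all genes. The library pairs of the 2 states did not overlap for 9 members, all lower in detached cells. Of all tested genes, 1483 (11%) were lower and 1186 (8.83%) higher without overlap, 2669 (19.9%) in all. PHLDA1, an ERK-induced gene (chromosome 12, 76397129 to 76432400), had 31.8 and 30.8 FPKM in detached knockdown libraries against 28.9 and 28 in detached control libraries, and 38.4 and 39.1 in attached knockdown libraries against 25.7 and 26.3 in attached control libraries, a difference of −0.42 ± 0.08.

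SPRY4, a Sprouty inhibitor of receptor tyrosine kinase signalling, had 50.5 and 49.5 FPKM in detached knockdown libraries against 46.6 and 43.9 in detached control libraries, and 48.5 and 50.2 in attached knockdown libraries against 33.6 and 30.4 in attached control libraries. Here the attached knockdown libraries reached the level of the detached knockdown libraries, and the attached control libraries were the low ones. DUSP5, a nuclear phosphatase of ERK, had a detached effect of 0.15 ± 0.08 and rose by 0.71 ± 0.08 in attached cells. The other members that rose in attached cells, named because the count is small, were SPRY2 (0.86 ± 0.13, detached 0.32 ± 0.13) and ETV4, an ETS factor (0.38 ± 0.06, detached 0.15 ± 0.06). SPRY2 stayed under 6 FPKM in all libraries.

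Immediate early and AP-1 genes, the first to be transcribed after a growth signal, had a similar pattern with fewer calls. Of 17 tested members, 2 rose in attached cells and 0 passed in detached cells, 15 had a negative difference, 7 of them at an unadjusted p under 0.05, and the medians were 0.04 in detached and 0.32 in attached cells. Over all tested genes 0.64% rose in attached cells and 0.737% passed in detached cells. A negative difference was found for 6953 of 13438, and for 3.92% with an unadjusted p under 0.05. JUN and EGR1 were the 2 that rose. EGR1, a zinc finger factor of the serum response, had 13.4 and 10.5 FPKM in detached knockdown libraries against 11 and 8.2 in detached control libraries, and 14.2 and 13.2 in attached knockdown libraries against 7.66 and 6.67 in attached control libraries. The detached groups overlapped, and its difference of −0.56 ± 0.22 had a wide interval of −1.08 to −0.03. KLF2 and MYC had differences of −0.71 ± 0.17 and −0.27 ± 0.08 and passed in neither state.

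Matrix proteolysis genes with a call were a protease receptor and a collagenase, both raised in attached cells. Of 12 tested members, 2 rose in attached cells and 0 passed in detached cells, with medians of 0.07 in detached and 0.34 in attached cells. The shares over all tested genes were 0.64% and 0.737%. PLAUR, the receptor of urokinase (chromosome 19, 44150247 to 44174699), had 80.6 and 67.1 FPKM in detached knockdown libraries against 70.2 and 61.7 in detached control libraries, and 73.3 and 78.1 in attached knockdown libraries against 39.9 and 40.0 in attached control libraries. Its detached groups overlapped, and the attached control libraries were low against all 6 others. The attached effect was 0.90 ± 0.10 (adjusted p = 0.00686) and the difference −0.75 ± 0.14. MMP1, an interstitial collagenase (chromosome 11, 102655725 to 102668968), had 21.0 and 24.3 FPKM in detached knockdown libraries against 17.6 and 17.7 in detached control libraries, and 8.68 and 9.16 in attached knockdown libraries against 2.99 and 3.94 in attached control libraries. Knockdown values lay above control values in both states, with a detached effect of 0.34 ± 0.12 (adjusted p = 0.329) and an attached increase of 1.16 ± 0.12 (adjusted p = 0.00683), and the difference was −0.82 ± 0.17.

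Among focal adhesion and integrin genes, 18 of 22 tested members had a negative difference, 14 under quantile normalization and also 14 when libraries were rescaled on the remaining genes, with small RNA, rRNA and mitochondrial loci set aside, and the median was −0.10. Over all 13438 genes the negative differences numbered 6953 as deposited, 6562 under quantile normalization and 6409 after that rescaling, so the list lies nearer to the rest under these scalings. In attached cells 3 rose and 1 fell, against 0.64% and 1.21% of all genes, and in detached cells 1 fell, against 0.662%. Besides ITGA6 the attached increases were those of ITGB5, a subunit of vitronectin receptors (0.24 ± 0.04, detached −0.00 ± 0.04), and of ITGA2, a subunit of collagen receptors (0.60 ± 0.10, detached 0.04 ± 0.10). ACTN1, an actin crosslinker of adhesion sites, passed in neither state, with a difference of −0.23 ± 0.06.

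Receptor tyrosine kinases and their ligands, which feed the same cascade, went both ways. Of 18 tested members, 2 rose and 2 fell in attached cells and 2 fell in detached cells, with medians of −0.10 in detached and −0.03 in attached cells, and 11 had a negative difference. The shares of all tested genes were 0.64% and 1.21% in attached cells and 0.662% in detached cells. Negative differences numbered 6953 of 13438. HBEGF, a ligand of the epidermal growth factor receptor, had 27.7 and 26.8 FPKM in detached knockdown libraries against 20.5 and 19.0 in detached control libraries, and 58.2 and 61.7 in attached knockdown libraries against 31.5 and 28 in attached control libraries. Knockdown libraries stood above control libraries in both states, with a detached effect of 0.45 ± 0.08 that just missed the threshold (adjusted p = 0.0563) and an attached increase of 0.99 ± 0.08 (adjusted p = 0.00309). Its difference was −0.54 ± 0.11. EPHA2, a receptor of ephrins, had 75.7 and 73.7 FPKM in detached knockdown libraries against 78.6 and 76.0 in detached control libraries, and 109 and 114 in attached knockdown libraries against 92.2 and 90.1 in attached control libraries, a difference of −0.34 ± 0.07. The members that fell in attached cells were FGFR3, a fibroblast growth factor receptor, and FGF2, a ligand of that family. FGFR3 fell by 0.59 ± 0.09 in detached and by 0.85 ± 0.09 in attached cells, a difference of 0.26 ± 0.13. FGF2 had −0.21 ± 0.07 in detached cells (adjusted p = 0.28) and fell by 0.47 ± 0.07 in attached cells, a difference of 0.26 ± 0.10.

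CDKN1A, the p21 inhibitor of cyclin-dependent kinases, followed HBEGF in form. It had 38.1 and 41.7 FPKM in detached knockdown libraries against 28.5 and 31.1 in detached control libraries, and 44.8 and 47.8 in attached knockdown libraries against 23.9 and 22.9 in attached control libraries. Its detached effect was 0.41 ± 0.07 (adjusted p = 0.0694), its attached increase 0.95 ± 0.07 (adjusted p = 0.00309) and the difference −0.55 ± 0.10. The p53 targets as a list did not share this, since of 16 tested members 2 rose in attached cells, the other being the exonuclease gene AEN (0.41 ± 0.06, detached 0.11 ± 0.06), and 9 had a positive difference. Of all tested genes 0.64% rose in attached cells, and 6485 of 13438 had a positive difference. BHLHE40, a transcriptional repressor of the hypoxia list, rose by 0.54 ± 0.06 in attached cells with a detached effect of 0.08 ± 0.06, while that list of 13 genes had a median difference of 0.05. LIF, a cytokine of the interleukin 6 family, rose by 0.47 ± 0.06 in attached cells (detached 0.18 ± 0.06), and the chemokine gene CXCL3 rose by 0.93 ± 0.16 (detached −0.04 ± 0.16) at no more than 5.29 FPKM.

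Promoters are shown for PLAUR and TFPI2, which were picked because their windows hold the AP-1 word, so they are examples only. Whether AP-1 acts on either gene was not tested. RefSeq windows of 300 bases on GRCh38.p14, from 250 before to 50 after the annotated start, were searched on both strands for TGANTCA, where N is any base, and the match is in capitals. The PLAUR window is chr19:43670120-43670419 and the TFPI2 window is chr7:93890704-93891003, both on the minus strand, with matches that begin at positions −186 and −87 from the start.
PLAUR: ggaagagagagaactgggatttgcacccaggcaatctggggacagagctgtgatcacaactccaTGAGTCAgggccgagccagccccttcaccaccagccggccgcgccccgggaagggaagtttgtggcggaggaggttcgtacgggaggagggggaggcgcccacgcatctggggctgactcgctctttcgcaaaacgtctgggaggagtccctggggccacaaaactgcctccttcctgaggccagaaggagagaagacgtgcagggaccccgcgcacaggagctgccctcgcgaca
TFPI2: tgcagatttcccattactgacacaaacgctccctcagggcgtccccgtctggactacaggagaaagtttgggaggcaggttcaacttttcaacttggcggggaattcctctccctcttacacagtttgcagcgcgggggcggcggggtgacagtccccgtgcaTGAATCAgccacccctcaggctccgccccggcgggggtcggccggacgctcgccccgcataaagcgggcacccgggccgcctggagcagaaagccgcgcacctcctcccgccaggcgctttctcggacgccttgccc
Of the 57 genes raised in attached cells only that have a window, 4 (7.02%) held this word, against 4.13% of 7505 tested genes and 7.76% of all 27305 windows. The word GAGGAAGT, of the kind that SPI1 and SPIB bind, was in 3 of the 57 (5.26%) and in 1 of the 65 (1.54%) genes lowered in attached cells only, against 2.23% of tested genes. The general ETS word CCGGAAGT was in 4 of the 57 (7.02%) and 1 of the 65 (1.54%), against 8.45% of tested genes. These counts are too small to set the groups apart, and a match is only a run of letters.

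The ID genes fell in attached cells. ID1, ID2 and ID3 encode helix-loop-helix proteins that block the DNA binding of their partners and are known targets of bone morphogenetic proteins. ID1 (chromosome 20, 30181386 to 30194318) had 85.6 and 77.3 FPKM in detached knockdown libraries against 113 and 106 in detached control libraries, and 55.0 and 57.6 in attached knockdown libraries against 117 and 105 in attached control libraries. ID2 had 12 and 15 FPKM in detached knockdown libraries against 20 and 22.5 in detached control libraries, and 6.98 and 8.04 in attached knockdown libraries against 22.1 and 18.9 in attached control libraries. For both genes the control libraries of the 2 states overlapped, knockdown libraries were lower than control libraries in each state, and the attached knockdown libraries were the lowest of all. ID1 fell by 0.96 ± 0.07 on the log2 scale in attached cells (adjusted p = 0.00309), its detached effect was −0.42 ± 0.07 (adjusted p = 0.062) and the difference was 0.54 ± 0.11. For ID2 the attached decrease was −1.34 ± 0.13, the detached effect −0.62 ± 0.13 (adjusted p = 0.107) and the difference 0.72 ± 0.19. ID3 passed in both states, with −0.35 ± 0.05 in detached and −0.58 ± 0.05 in attached cells and a difference of 0.23 ± 0.07. Over all 18 genes of WNT and BMP feedback the medians were alike, −0.23 in detached and −0.22 in attached cells.

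PFKM and POMT1 fell in attached cells with detached values near or above 0. PFKM, the muscle form of phosphofructokinase, had 27.3 and 28.7 FPKM in detached knockdown libraries against 26.1 and 28.4 in detached control libraries, and 20.9 and 22.8 in attached knockdown libraries against 29.2 and 30.8 in attached control libraries. The attached knockdown libraries were low against the other 6, and the difference was 0.48 ± 0.10. The attached decrease was −0.44 ± 0.07 (adjusted p = 0.0345 in limma), and −0.50 to −0.38 without 1 library. POMT1, a protein O-mannosyltransferase, had a difference of effects of 0.74 ± 0.12, from a detached effect of 0.26 ± 0.08 (adjusted p = 0.275) and an attached decrease of −0.48 ± 0.08 (adjusted p = 0.0378). Without 1 library that decrease was −0.57 to −0.40. The attached calls of PFKM and POMT1 both lay near the threshold. The locus that merges FAM92A1 with RBM12B-AS1 had a detached effect of 0.17 ± 0.06 and fell by 0.39 ± 0.06 in attached cells. SEL1L, an adaptor of endoplasmic reticulum degradation, fell by 0.86 ± 0.14 in attached cells and had −0.31 ± 0.14 in detached cells (adjusted p = 0.457), where knockdown libraries were also lower without overlap. Its 2 attached control libraries lay apart, at 43.4 and 32.3 FPKM.

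The 30 genes that passed in detached cells only all had the same sign in attached cells. The 26 that fell had a median of −0.39 in detached and −0.19 in attached cells, 21 of them had an attached unadjusted p under 0.05, and 11 kept at least 50% of the detached effect. The 4 that rose had medians of 0.29 and 0.14. At an unadjusted p under 0.05 the difference of effects held for 16 of the 30, a share that the choice of genes raises. None of these 30 calls held without each of the 8 libraries, against 9 of the 179 calls in attached cells only.

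MSN, which encodes moesin, a linker of actin to the membrane, led them (chromosome X, 64808257 to 64961791). It had 232 and 232 FPKM in detached knockdown libraries against 293 and 294 in detached control libraries, and 255 and 247 in attached knockdown libraries against 278 and 276 in attached control libraries. Knockdown libraries were lower in both states without overlap, by −0.34 ± 0.03 in detached cells (adjusted p = 0.00563) and −0.14 ± 0.03 in attached cells (adjusted p = 0.0911), and the difference was −0.20 ± 0.05 with an interval of −0.31 to −0.09.

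DDR1, a receptor tyrosine kinase for collagen (chromosome 6, 30844198 to 30868719), had an attached value near 0. It had 116 and 119 FPKM in detached knockdown libraries against 144 and 140 in detached control libraries, and 99.1 and 102 in attached knockdown libraries against 102 and 103 in attached control libraries. The effect was −0.27 ± 0.04 in detached cells (adjusted p = 0.0375) and −0.03 ± 0.04 in attached cells, where the libraries of both groups lay close together, and the difference was −0.24 ± 0.06 (interval −0.38 to −0.11, adjusted p = 0.602). ZDHHC3, a palmitoyltransferase (chromosome 3, 44956487 to 45017905), had 15.2 and 16.8 FPKM in detached knockdown libraries against 26.2 and 29.3 in detached control libraries, and 20.6 and 19.0 in attached knockdown libraries against 23.5 and 24.5 in attached control libraries, a difference of −0.49 ± 0.12.

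VCL, the focal adhesion protein vinculin, had 176 and 174 FPKM in detached knockdown libraries against 221 and 227 in detached control libraries, and 173 and 162 in attached knockdown libraries against 188 and 189 in attached control libraries. Its detached control libraries were the high ones, and the knockdown libraries of both states lay close together. The effects were −0.35 ± 0.04 in detached and −0.17 ± 0.04 in attached cells. The other named genes of this kind were the chromatin genes HDAC7, a class IIa histone deacetylase (difference −0.33 ± 0.11), and USP22, the ubiquitin protease of the SAGA complex (−0.16 ± 0.05), the channel gene TMEM38B (−0.43 ± 0.12), the zinc finger gene ZNF609 (−0.38 ± 0.11), the selenoprotein gene SEP15 (−0.21 ± 0.07), the septin gene SEPT9 (−0.17 ± 0.06) and the nucleoside transporter gene SLC29A1 (−0.16 ± 0.05). The locus of LOXL2 and ENTPD4 had −0.31 ± 0.08 and cannot be split. Of the genes that rose, HSPA5, the chaperone BiP, had 218 and 222 FPKM in detached knockdown libraries against 187 and 186 in detached control libraries, and 219 and 222 in attached knockdown libraries against 203 and 208 in attached control libraries. It rose by 0.23 ± 0.03 in detached cells, its attached value was 0.10 ± 0.03 and the difference was 0.14 ± 0.05. CLDN1, a tight junction protein that also passed only in detached cells, was higher by 0.46 ± 0.07 in detached cells and had 0.36 ± 0.07 in attached cells (adjusted p = 0.0596), so the split of calls for it rests on the threshold.

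**Figure D3:**
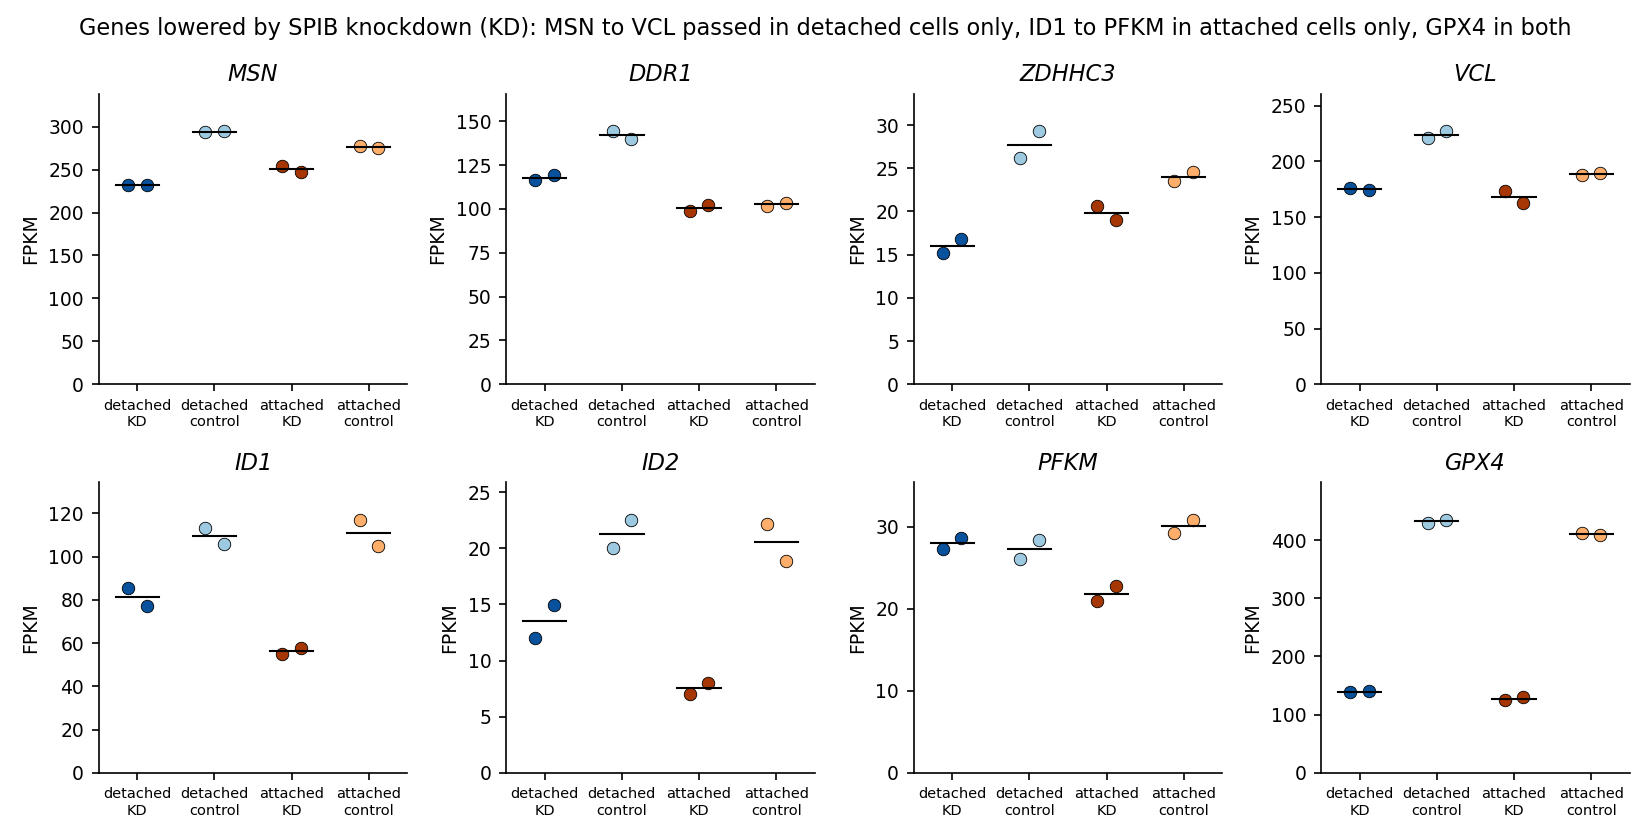
FPKM of 8 genes that fell with the SPIB knockdown in at least 1 state, with a point for each library and a bar at the mean of 2 libraries in detached knockdown (KD), detached control, attached KD and attached control cells. MSN, DDR1, ZDHHC3 and VCL passed only in detached cells, ID1, ID2 and PFKM only in attached cells, and GPX4 in both, where its KD points lie between 126 and 140 FPKM in both states.

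The 69 genes called in both states had a median effect of −0.54 in detached and −0.48 in attached cells. GPX4, the selenoprotein that reduces lipid peroxides (chromosome 19, 1103936 to 1106811), had 139 and 140 FPKM in detached knockdown libraries against 430 and 435 in detached control libraries, and 126 and 129 in attached knockdown libraries against 411 and 410 in attached control libraries. Its effect was −1.62 ± 0.03 in detached and −1.68 ± 0.03 in attached cells, and the difference of 0.06 ± 0.05 had an interval of −0.05 to 0.17, so differences beyond 0.17 log2 in size lie outside it. INA, the intermediate filament protein alpha-internexin, fell by 1.01 ± 0.04 in detached and by 0.82 ± 0.04 in attached cells, with a difference of −0.19 ± 0.06 (interval −0.34 to −0.05, adjusted p = 0.669). For NFE2L3, a transcription factor of the cap'n'collar family, SLC7A5, a subunit of an amino acid transporter, and ASNS, asparagine synthetase, the intervals of the difference held 0, at −0.56 to 0.13, −0.32 to 0.15 and −0.01 to 0.27.

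The series title names the autolysosomal process, so lysosomal and autophagy genes were read for a difference as well. LIPA, lysosomal acid lipase, had 18.5 and 21.8 FPKM in detached knockdown libraries against 33.7 and 37.9 in detached control libraries, and 14.2 and 12.7 in attached knockdown libraries against 25.9 and 25.0 in attached control libraries. It fell in both states, and the difference of 0.07 ± 0.14 had an interval of −0.26 to 0.41. LAMP2, a lysosomal membrane protein, fell by 0.37 ± 0.05 in detached and 0.47 ± 0.05 in attached cells, a difference of 0.09 ± 0.08. For LAMP1, CTSB, SQSTM1 and MAP1LC3B, which passed in neither state, the differences were −0.05 ± 0.06, −0.01 ± 0.07, −0.01 ± 0.05 and −0.05 ± 0.09.

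CTSL, a lysosomal cysteine protease, was the cathepsin with a call, rising by 0.34 ± 0.04 in attached cells (adjusted p = 0.0135) with a detached value of 0.12 ± 0.04 and a difference of −0.21 ± 0.06. CALCOCO2, the autophagy receptor NDP52, had 86.9 and 91.4 FPKM in detached knockdown libraries against 88.2 and 90.8 in detached control libraries, and 103 and 109 in attached knockdown libraries against 87.6 and 88.6 in attached control libraries, a difference of −0.27 ± 0.07. SNAP47, a SNARE protein, had 25.2 and 22.3 FPKM in detached knockdown libraries against 22.4 and 21.6 in detached control libraries, and 22.9 and 20.9 in attached knockdown libraries against 24 and 24 in attached control libraries. It passed in neither state, and the difference was 0.23 ± 0.11 with an interval of −0.03 to 0.50. Over the lists, the median difference was 0.02 for 10 cathepsins, 0.03 for 26 lysosomal hydrolases and membrane proteins, 0.00 for 15 proton pump genes, −0.03 for 28 genes of autophagy initiation and conjugation, −0.03 for 9 autophagy receptors and 0.04 for 16 genes of autophagosome fusion with lysosomes.

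**Figure D4:**
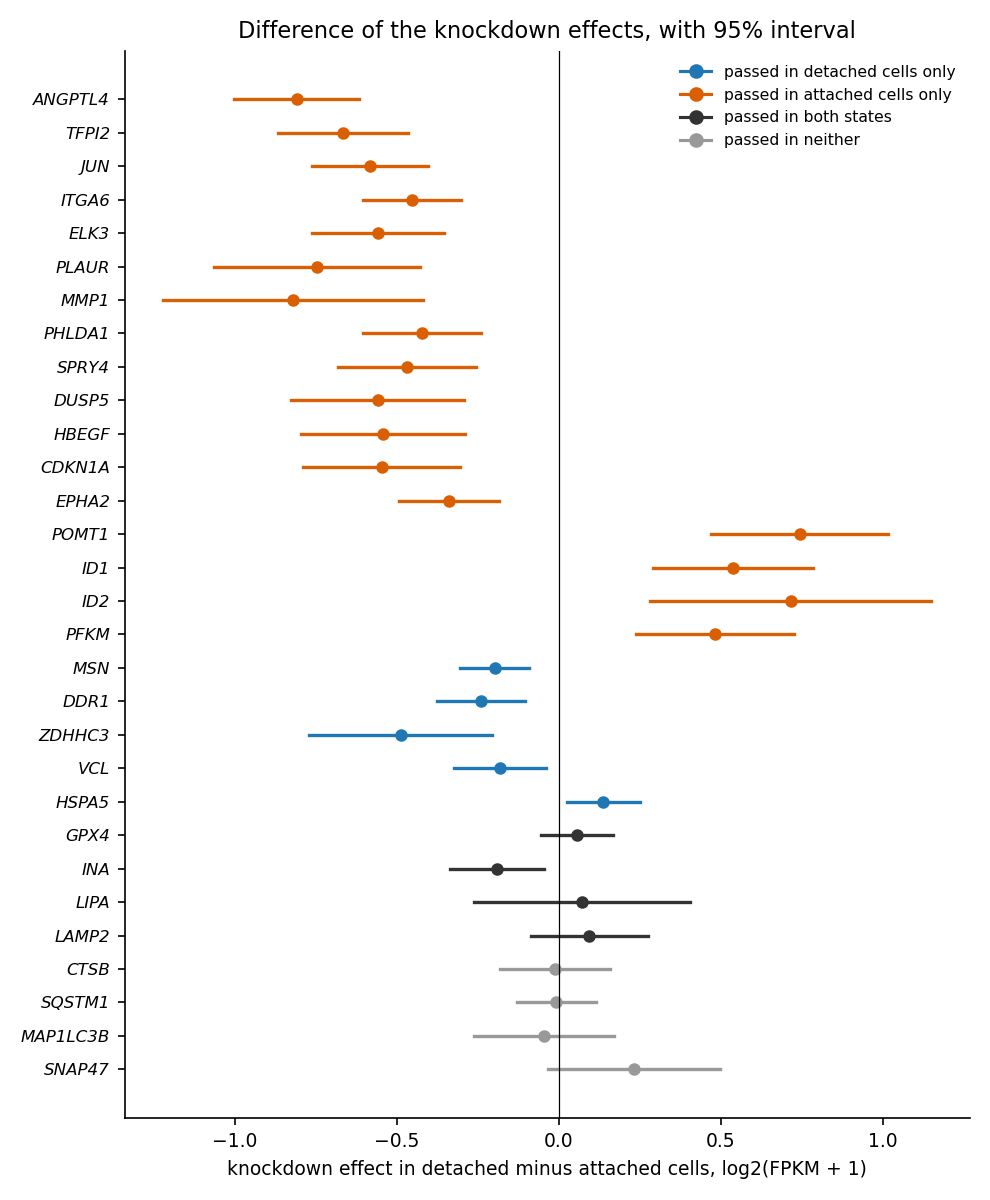
Difference of the knockdown effects, detached minus attached cells, on log2(FPKM + 1) for 30 genes, with the 95% interval from limma as a line and colours by the state in which the knockdown effect passed the threshold. Intervals of ANGPTL4 to EPHA2 lie below 0 and those of POMT1 to PFKM above 0, while those of GPX4, LIPA, LAMP2, CTSB, SQSTM1, MAP1LC3B and SNAP47 hold 0; no gene passed after adjustment over all 13438 genes.

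Among the other lists, the difference of effects had a median of −0.10 for 18 caspases and apoptosis inhibitors, 13 of them negative, with no member called in either state. It was −0.08 for 15 YAP-TEAD and serum response targets, of which 10 were negative, and −0.07 for 17 amino acid transporters, of which 12 were negative. Of all 13438 genes 6953 were negative, and 0.737% passed in detached and 1.85% in attached cells. The difference had a median of 0.05 for 25 ATF4 targets, 0.01 for 63 ribosomal protein genes, −0.02 for 21 NRF2 targets, ferritin and glutathione genes, and 0.05 for 29 genes of mitosis. Over the 39 lists the number of genes with a called difference was 0. Single members with values on both sides were HSPB1, a small heat shock protein that fell in both states (difference 0.21 ± 0.06), HSPA8, a constitutive chaperone that passed in attached cells only (−0.14 ± 0.05), and HMOX1, heme oxygenase 1, which also passed in attached cells only (−0.19 ± 0.07). In detached cells HSPA8 had 0.17 ± 0.03 (adjusted p = 0.0829), short of the threshold, with knockdown libraries above control libraries. Its attached effect was 0.31 ± 0.03. HMOX1 had 0.09 ± 0.05 in detached and 0.28 ± 0.05 in attached cells.

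**Figure D5:**
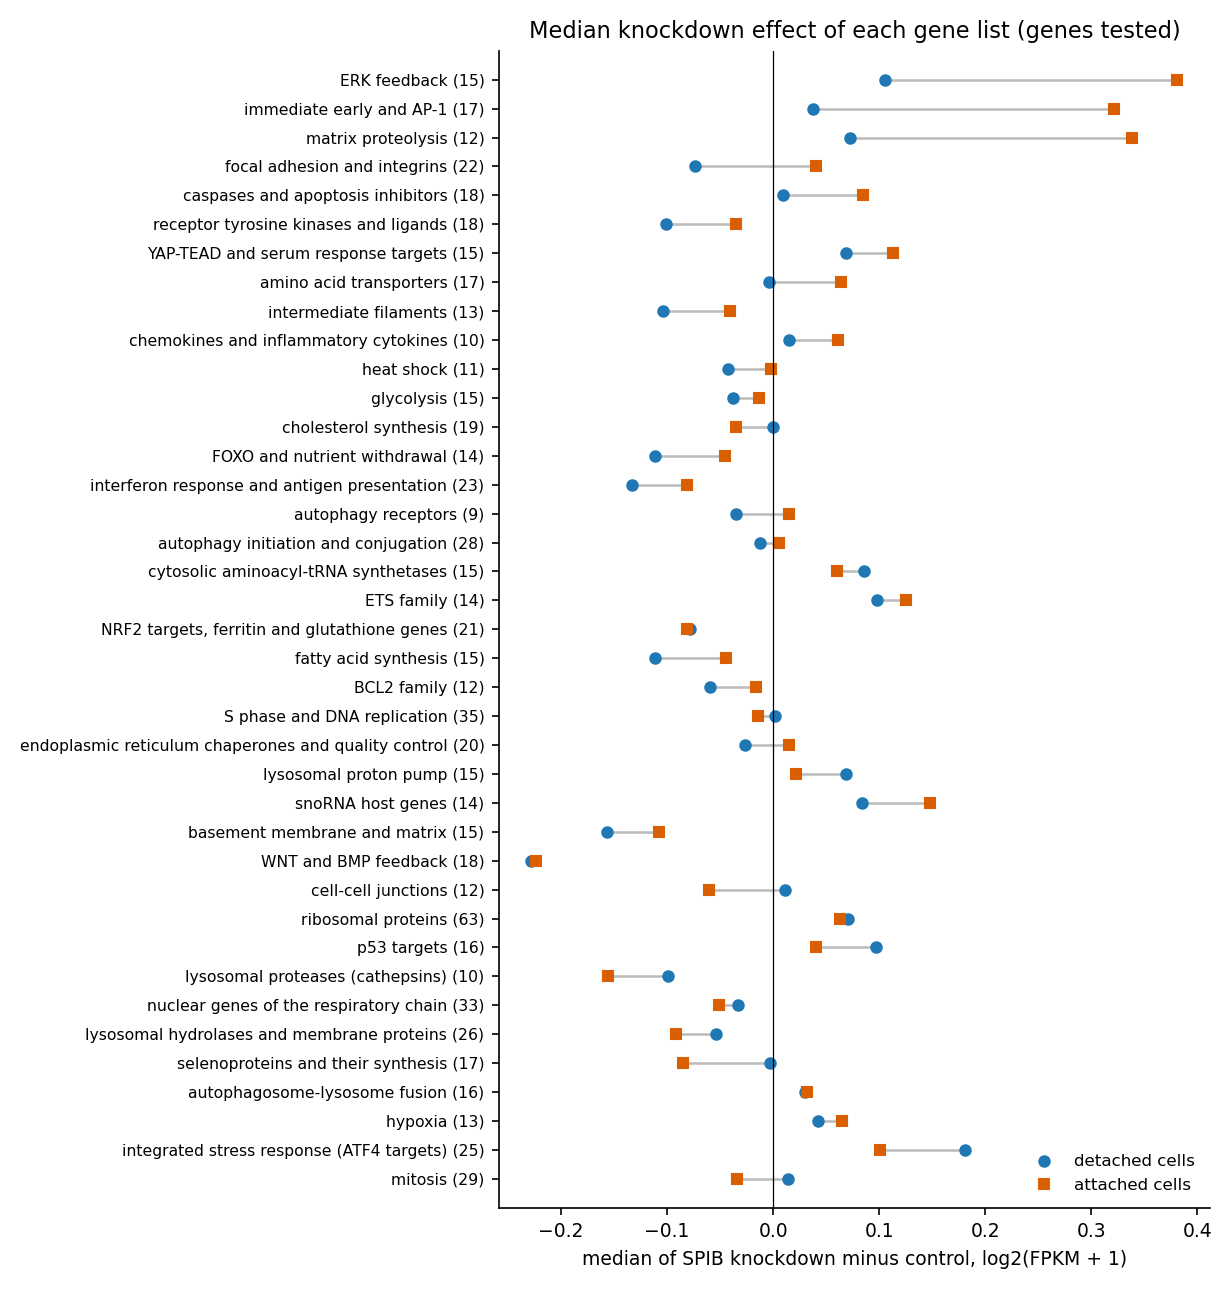
Median knockdown effect of 39 gene lists in detached cells (blue circles) and in attached cells (orange squares), as SPIB knockdown minus control on log2(FPKM + 1), ordered by the median difference, with the number of genes tested in brackets. ERK feedback, immediate early and AP-1, and matrix proteolysis genes have medians of 0.32 to 0.38 in attached cells and 0.04 to 0.11 in detached cells, and the next list, focal adhesion and integrins, has 0.04 in attached and −0.07 in detached cells.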

How the data were processed

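The authors deposited FPKM values, 1 table per library. HISAT and Cuffnorm are named as tools, with hg19 as the build, per the submitters' processing notes; their versions, the gene annotation and strandedness were not given in the sources used here. Values of overlapping or antisense genes may therefore mix. The tables list 28590 loci, of which 1961 merge several symbols and 1673 have none. Loci of the same symbol were summed, leaving 27204, and 13438 genes with at least 1 FPKM in 2 or more libraries were tested, 1642 of them (12.2%) merged and 333 without a symbol. A 0 in these tables can be a failed estimate, and for 21 tested genes a 0 stands beside at least 10 FPKM in another library. Read depth is unknown, so no counting interval is given.

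limma 3.58.1 (R 4.3.3) was fitted to log2(FPKM + 1), which understates changes of low genes, with 1 mean per group, an intensity trend, and degrees of freedom of 4 (residual) and 3.42 (prior). All p-values are two-sided, with Benjamini-Hochberg adjustment over all tested genes and a threshold of 0.05. The contrasts were the knockdown effect in detached cells, in attached cells, and their difference. Errors after ± are SE. "Rose" and "fell" mark effects past the threshold. The labels call the 2 libraries of a group biological repeats, and p-values measure the spread between them. The code was tested on simulated data.

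The genes named were, for each state, the 12 of smallest p for the difference among genes called in that state alone, leaving out clone names, small RNAs and loci without a symbol, the 3 members of smallest such p in each of 39 lists, and 15 genes of interest. Members and lists were chosen with earlier results of these data known. EGR1, SPRY2, ITGA2, FGFR3 and FGF2, and the genes under other observations, fall outside this rule, as their values had been seen when they were picked. Library pairs do not overlap when each knockdown minus control value of detached cells, over all pairs of libraries, lies on 1 side of every value of attached cells. Promoters came from RefSeq, with the first window per symbol. Alternatives were other pseudocounts, filters, scalings, variance settings, a replicate block, fits within a state and leaving out each library. A fit without the 21 loci listed at 0 and a block for the libraries with a mitochondrial locus at 0 were added after seeing the data.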

Additional observations from a re-analysis of the deposited data

How the results depend on the processing

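The number of genes with a called difference of effects was 0 in every setting that kept all 8 libraries, and 0 to 3 without 1 library. The calls were KRT5|KRT6A, RP11-380M21.2 and RP11-281O15.7 without attached knockdown replicate 1, MAGED4B without attached knockdown replicate 2, SNRPGP10 without either attached control library and HEATR6 without detached control replicate 2. The 99 calls in detached cells became 61 with no filter on low values, 26 without an intensity trend, 6 from the 4 detached libraries alone and 65 with a block for the libraries whose mitochondrial locus is at 0, and 10 to 69 without 1 library, lowest without detached control replicate 1. The 248 calls in attached cells became 110, 66, 28 and 135 in the same settings and 37 to 144 without 1 library, lowest without attached control replicate 1. With libraries rescaled on genes other than small RNA, rRNA and mitochondrial ones, 61 rose and 182 fell in attached cells. The own-state and left-out-library settings use fewer samples, the setting with no filter tests 27204 genes, and the cause of the other shifts was not tested.

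Replicate numbers did not pair the libraries, with correlations of same-numbered deviations between −0.0194 and 0.119. With a replicate block the counts were 0 for the difference, 70 in detached and 198 in attached cells.

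Of 3907 values of 107 genes recomputed, 3182 kept their direction and side of the threshold, 710 kept the direction and were no longer past the threshold, and 15 changed sign. In the main fit 0 differences of effects were past the threshold, so these could not lose a call. The 3182 include them and do not measure how stable the calls within a state were. The 710 were all knockdown effects within a state, and the 15 were all differences of effects near 0, those of CTSB (0.008944 after quantile normalization, 0.004891 after rescaling, −0.06763 to 0.04277 without 1 library), LAMP1 (4.567e-05 after quantile normalization), SQSTM1 (0.009402 after rescaling, −0.04296 to 0.02676 without 1 library) and, without 1 library, LIPA (−0.04362 to 0.1854), MAP1LC3B (−0.1297 to 0.03637) and SLC7A5 (−0.1765 to 0.01075). For 102 of 107 genes the difference kept its sign without each library. Among the 32 calls in detached cells 2 held without each library, those of GPX4 and INA, and among the 62 in attached cells 14 did.

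With 2 libraries per group, the interval of a difference reached a median of 0.367 log2 to either side over all tested genes. For the 9374 genes with a mean of at least 5 FPKM it reached 0.289, so low genes were measured least well.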

Other observations

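Several genes outside the lists and the naming rule, chosen after their values were seen, showed a similar split between the states. TFEB, a transcription factor of lysosomal and autophagy genes, had 10.5 and 12 FPKM in detached knockdown libraries against 10.4 and 9.7 in detached control libraries, and 7.95 and 7.1 in attached knockdown libraries against 10.9 and 11.1 in attached control libraries. Its attached value was −0.50 ± 0.10 (adjusted p = 0.0589), which missed the threshold, and the difference of effects was 0.64 ± 0.14 (adjusted p = 0.602). PLD3, a lysosomal exonuclease, fell by 0.41 ± 0.05 in attached cells and had −0.01 ± 0.05 in detached cells.

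The metallothionein genes MT1X and MT2A, which bind zinc and copper, rose by 0.76 ± 0.10 and 0.63 ± 0.06 in attached cells and had 0.04 ± 0.10 and 0.30 ± 0.06 in detached cells. Near-identical copies of these genes make their split uncertain. ERRFI1, a feedback inhibitor of the epidermal growth factor receptor, averaged 237 ± 10.4 FPKM in detached knockdown libraries and 217 ± 9.07 in detached control libraries, and 260.1 ± 15.97 in attached knockdown libraries and 184 ± 17.7 in attached control libraries (SD, n = 2 each), a difference of −0.37 ± 0.11 (adjusted p = 0.637).

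CEBPD, a leucine zipper transcription factor, averaged 3.21 ± 0.152 FPKM in detached knockdown libraries and 4.41 ± 0.854 in detached control libraries, and 2.03 ± 0.00967 in attached knockdown libraries and 5.61 ± 0.611 in attached control libraries (SD, n = 2 each), a difference of 0.77 ± 0.21. CDKN2C and CBX7, an inhibitor of cyclin-dependent kinases and a Polycomb protein, fell in attached cells by 0.56 ± 0.08 and 0.67 ± 0.12 and had −0.12 ± 0.08 and −0.11 ± 0.12 in detached cells.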
